A study of Drosophila melanogaster with 2 samples.

Results

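The genes described here encode Mediator and Integrator, a pair of large protein complexes that act on RNA polymerase II. They were chosen by symbol from the protein-coding genes of the annotation: every gene named MED or IntS with a number, plus skd, kto, Cdk8 and CycC, which form the kinase module of Mediator. This gave 40 genes of 13968, of which 29 belong to Mediator and 11 to Integrator. A gene was called occupied when the summit of a Taf1 peak lay within 500 bp of any of its annotated transcription start sites.

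Taf1 binding was mapped by chromatin immunoprecipitation with sequencing (ChIP-seq) in Drosophila melanogaster, using whole embryos collected from 0 to 24 h. The animals were of a Taf1-GFP strain that expresses a Taf1-eGFP fusion from a transgene, and an antibody against GFP pulled down the chromatin. All samples formed 1 group, with 2 biological replicates and no untagged or treated group to compare with. Each collection mixed all embryonic stages and cell types, so a peak cannot be assigned to a stage or tissue, and binding in fewer cells cannot be told apart from less binding per cell. Occupancy was read from a pooled list of 2658 peaks on chromosome arms, the replicates' own thresholded lists held 1281 and 1988, and the longer ranked lists behind them, which keep weak peaks, held 33381 and 94109. The files give no read counts, so depth is unknown.

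Taf1 is the largest subunit of TFIID, which recognises core promoters and nucleates the pre-initiation complex. Mediator carries signals from sequence-specific activators to that complex. Its head and middle modules contact the polymerase, its tail contacts activators, and a kinase module of Cdk8, cyclin C and the proteins of kto (the MED12 homologue) and skd (the MED13 homologue) docks reversibly. Integrator binds paused polymerase, cuts the nascent RNA through its IntS11 endonuclease and carries a protein phosphatase. It is known for making the ends of spliceosomal snRNAs and for ending transcription early at many protein-coding genes.

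The sequences at 6 of the occupied promoters show where the summits fell. MED27, IntS11, MED7 and IntS9 are given as the whole stretch between their start and that of the neighbour on the other strand, where the summit lay, MED17 as a promoter with a wider gap, and MED4 as the occupied member with no protein-coding neighbour in the window. All are dm6 bases from the RefSeq release 6 assembly, written 5′ to 3′ on the strand of the named gene and ending 1 base before its start. Capitals mark matches to the DRE, the E-box, the TATA box letters and Ohler motifs 6 and 7, each of which is described with its counts further on.
MED27 (3R:5654862-5655138, + strand, 277 bp): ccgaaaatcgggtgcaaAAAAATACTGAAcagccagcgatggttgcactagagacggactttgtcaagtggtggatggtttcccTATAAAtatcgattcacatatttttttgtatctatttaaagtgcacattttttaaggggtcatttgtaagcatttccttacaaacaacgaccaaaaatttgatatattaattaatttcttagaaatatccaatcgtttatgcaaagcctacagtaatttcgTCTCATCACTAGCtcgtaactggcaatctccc
IntS11 (3R:29745093-29745336, + strand, 244 bp): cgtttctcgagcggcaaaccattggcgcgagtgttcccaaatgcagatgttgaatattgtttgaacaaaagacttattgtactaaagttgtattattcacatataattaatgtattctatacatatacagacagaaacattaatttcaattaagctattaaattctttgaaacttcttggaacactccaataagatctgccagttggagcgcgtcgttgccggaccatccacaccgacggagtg
IntS9 (3L:16105628-16105851, - strand, 224 bp): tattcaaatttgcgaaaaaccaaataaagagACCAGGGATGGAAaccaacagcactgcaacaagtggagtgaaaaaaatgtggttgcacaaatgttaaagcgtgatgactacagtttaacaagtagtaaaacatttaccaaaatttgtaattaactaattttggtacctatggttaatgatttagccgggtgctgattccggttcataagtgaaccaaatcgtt
MED7 (3R:10761033-10761309, - strand, 277 bp): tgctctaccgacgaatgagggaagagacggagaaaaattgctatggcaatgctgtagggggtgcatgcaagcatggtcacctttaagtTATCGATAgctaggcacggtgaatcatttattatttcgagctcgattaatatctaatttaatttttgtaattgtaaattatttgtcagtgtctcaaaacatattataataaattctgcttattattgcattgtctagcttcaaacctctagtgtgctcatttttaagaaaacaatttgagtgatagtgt
MED17 (3R:18188822-18189071, + strand, 250 bp): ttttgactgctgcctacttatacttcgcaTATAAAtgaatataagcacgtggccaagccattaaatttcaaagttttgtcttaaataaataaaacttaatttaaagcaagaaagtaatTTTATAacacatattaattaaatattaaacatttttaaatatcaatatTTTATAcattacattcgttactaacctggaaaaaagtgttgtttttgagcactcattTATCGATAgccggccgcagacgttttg
MED4 (3L:7250528-7250777, - strand, 250 bp): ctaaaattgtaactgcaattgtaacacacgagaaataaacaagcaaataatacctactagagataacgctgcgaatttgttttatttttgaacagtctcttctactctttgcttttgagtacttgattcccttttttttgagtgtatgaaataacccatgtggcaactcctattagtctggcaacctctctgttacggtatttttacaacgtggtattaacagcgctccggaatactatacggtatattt

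Counted from the first printed base, the pooled summit was base 135 in MED27, base 130 in IntS11, base 139 in IntS9, base 252 in MED7, base 166 in MED17 and base 63 in MED4. In MED27 and IntS11 the summit thus stood near the middle of the gap between the starts, whereas in MED7 it stood next to the MED7 start.

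Taf1 summits lay at 12 of the 40 genes (30%, exact Clopper-Pearson 95% interval 16.6 to 46.5%), against 13.2% of all 13968 protein-coding genes. For Mediator the count was 9 of 29 (31%, interval 15.3 to 50.8%) and for Integrator 3 of 11 (27.3%, interval 6.02 to 61%). The intervals cover counting error over genes only, and they are too wide to separate the complexes from each other. The occupied Mediator genes were MED27, MED30, MED7, MED4, MED17, skd, MED31, MED16 and MED20, and the occupied Integrator genes were IntS11, IntS6 and IntS9. No test was made of these shares, because the genes were chosen with results of these data known.

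With the 500 bp window, nearly all occupied members shared a summit with the gene on the other side. Of the 12 occupied members, 11 had a summit that also lay within 500 bp of the start of a head-to-head neighbour, meaning a gene on the other strand that is transcribed away from it (91.7%, against 56.9% of the 1850 occupied protein-coding genes). For 10 of them that was the only kind of summit. MED4 had a summit of its own and no shared one, and IntS6 had 1 of each kind. Members with a summit of their own therefore numbered 2 of 12 (16.7%), against 41.1% of all occupied genes. Both counts depend on the window. Within 250 bp, 4 of 9 occupied members had a summit of their own (44.4%, against 48.6%) and 6 of 9 a shared head-to-head one (66.7%, against 50%). Where the peak had to overlap the start, these were 3 of 5 (60%, against 65.9%) and 2 of 5 (40%, against 31.7%).

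Many Mediator and Integrator genes stand in head-to-head pairs in the annotation, a property that uses no Taf1 value. A head-to-head neighbour with its start within 1 kb was present at 29 of 40 members (72.5%), against 36.2% of protein-coding genes, at 21 of 29 Mediator genes and at 8 of 11 Integrator genes. Among genes with such a neighbour, 11 of 29 members were occupied (37.9%), against 24.3% of all 5052 such genes. Among genes without one, 1 of 11 members was occupied (9.09%), against 6.97% of all 8916. The gap between the members and all genes was thus 13.6 percentage points where a neighbour was present and 2.13 where none was, against 16.8 without the division. Which gene of a pair a shared summit belongs to cannot be told apart with these lists.

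**Figure D1:**
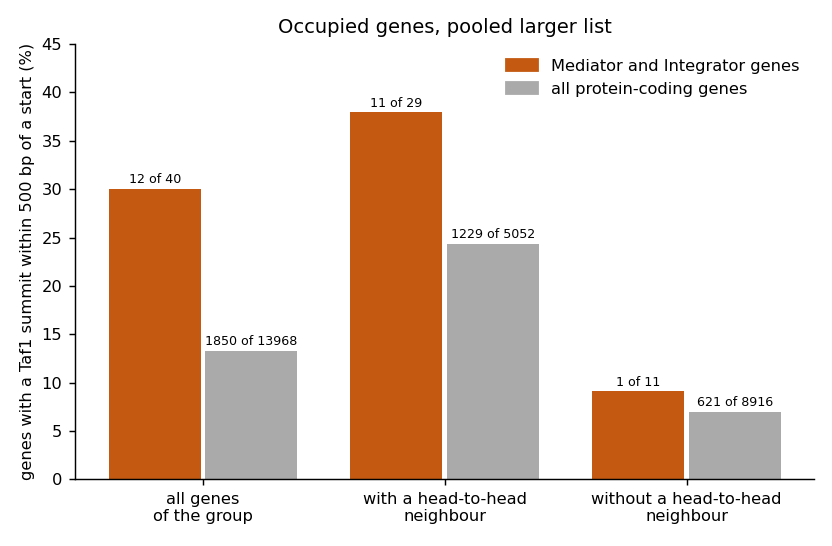
Share of genes with a Taf1 summit within 500 bp of a start in the pooled list, in percent, for Mediator and Integrator genes (orange) and all protein-coding genes (grey), with the counts above the bars. The members' share is 30% over all 40 genes, 37.9% with a head-to-head neighbour and 9.09% without one.

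The distance between paired starts was set side by side for occupied and unoccupied members, without a test. The median gap to the neighbour's start was 274 bp at the 11 occupied members (range 47 to 493 bp) and 205 bp at the 18 unoccupied members (range 19 to 859 bp), against 279 bp at all occupied and 306 bp at all unoccupied genes with a neighbour. The range of the occupied members lay inside the wider one of the unoccupied members. The occupied members had the larger median, the reverse of the order over all genes. Unoccupied members with a close neighbour included MED6, whose start is 19 bp from that of Naa80, CycC, 26 bp from UQCR-C1, and IntS1, 28 bp from Not11.

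The strongest member peaks were at tail and head genes of Mediator. MED27 (FBgn0037359), a metazoan subunit placed by the tail, had a peak at 3R:5654975-5655081 with the authors' signal value 232.6 in the pooled list, where it ranked 261 of 2658. In the replicates its signal was 85.8 and 154.7. The summit lay between genes, 143 bp upstream of MED27 and 135 bp upstream of elm, so neither start was clearly the closer. MED30 (FBgn0035149), a head-associated subunit of metazoan Mediator, had a peak at 3L:654203-654312 with a pooled signal of 226.8, and 121.8 and 98.6 in replicates 1 and 2. Its summit was 193 bp upstream of MED30 but 81 bp upstream of Rev1, which encodes a translesion DNA polymerase. The MED30 summit fell on the same base in both replicates.

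The head module scaffold MED17 (FBgn0038578) had a weaker peak at 3R:18188829-18189144, with a pooled signal of 102.7 and 42.7 and 53.1 in the replicates. The summit was 85 bp upstream of MED17 and 280 bp upstream of CG12321. MED20, a head subunit that pairs with MED18, was the weakest occupied member, with a pooled signal of 55.7 and 27.1 and 28.7 in the replicates' ranked lists. Its summit (2L:8073342) lay 494 bp upstream of the MED20 start, inside coding sequence of Trf, whose start is 47 bp away on the other strand. Trf encodes a TBP-related factor, so the pair joins a Mediator gene with a gene for a factor of the TBP family. The MED20 peak was absent from both thresholded replicate lists and from the conservative pooled list.

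In the middle module MED7, MED4 and MED31 were occupied. MED7 (FBgn0051390), which forms an elongated hinge with MED21, had a peak at 3R:10760900-10761215 with a pooled signal of 120.5 and near-equal replicates, 56.2 and 62.3. Its summit was 26 bp upstream of the MED7 start, the closest among the strongest summits of the 12 occupied members, and 252 bp upstream of Cap-H2, a condensin II gene. MED4 (FBgn0035754) had a peak at 3L:7250557-7250872 with a pooled signal of 109.8, and 32.8 in replicate 1 and 75.1 in replicate 2. No other protein-coding start lay within 500 bp of the MED4 summit, but it lay in an exon of the antisense RNA gene asRNA:CR43470, 75 bp past the start of that RNA. The MED4 summit was 188 bp upstream of MED4. MED31 (FBgn0037262), a small conserved subunit, had a pooled signal of 80.7, and 35.0 and 52.3 in the replicates, at 3R:4641665-4641980. MED31 and slx1, a structure-specific endonuclease subunit gene, have the same annotated start, and the summit lay 140 bp upstream of both and 15 bp inside CG9775 on the other strand.

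The kinase module had 1 occupied gene of 4. skd (FBgn0003415), whose protein links the kinase to the core of Mediator, had a peak at 3L:21027671-21027986 with a pooled signal of 81.3, and 37.8 and 54.3 in the replicates. The summit lay 395 bp upstream of skd but 86 bp upstream of Pdss2, a gene of ubiquinone side-chain synthesis. Cdk8, CycC and kto had no summit in the pooled list. In the tail, besides MED27, MED16 (FBgn0034707) had summits at 2R:22182961 and 2R:22183160 with pooled signals of 63.3 and 4.8. The stronger lay 177 bp upstream of MED16 and 82 bp upstream of CG11170, and the weaker lay 22 bp inside MED16. The MED16 ranked-list signals were 35.2 and 28.2 in replicates 1 and 2, and neither thresholded replicate list held the peak. The same replicate peaks were matched to both pooled summits. Their summits lay 6 and -12 bp from the stronger pooled summit, but -193 and -211 bp from the weaker one.

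Of the 3 genes of the Integrator cleavage module 2 were occupied, IntS11, the endonuclease, and IntS9, its catalytically inactive partner. IntS11 (FBgn0039691) had a peak at 3R:29745138-29745231 with a pooled signal of 195.1, and 70.5 and 129.8 in replicates 1 and 2. The summit lay 115 bp upstream of IntS11 and 130 bp upstream of Wdr24, which encodes a GATOR2 subunit, within an exon of the antisense RNA gene asRNA:CR46109. IntS9 (FBgn0036570) had a peak at 3L:16105555-16105870 with a pooled signal of 116.2, and 37.1 and 79.9 in the replicates. Its summit was 86 bp upstream of IntS9 and 139 bp upstream of CG43295. The third gene of that module, IntS4, had no peak in the pooled thresholded list.

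IntS6, which takes part in holding the phosphatase PP2A, has annotated starts at 2 positions, X:5747254 and X:5746375, and a summit at each. The stronger (FBgn0261383, X:5747619-5747697) had a pooled signal of 192.9, and 70.3 and 118.6 in replicates 1 and 2. It lay 408 bp upstream of the outer IntS6 start and 85 bp upstream of Rtel1, a DNA helicase gene. The weaker, at X:5745899-5746214, had 100.7 in the pooled list and 49.6 and 53.0 in the replicates. It lay in an IntS6 intron, 318 bp past the inner start, with no other protein-coding gene's start in the window.

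**Figure D2:**
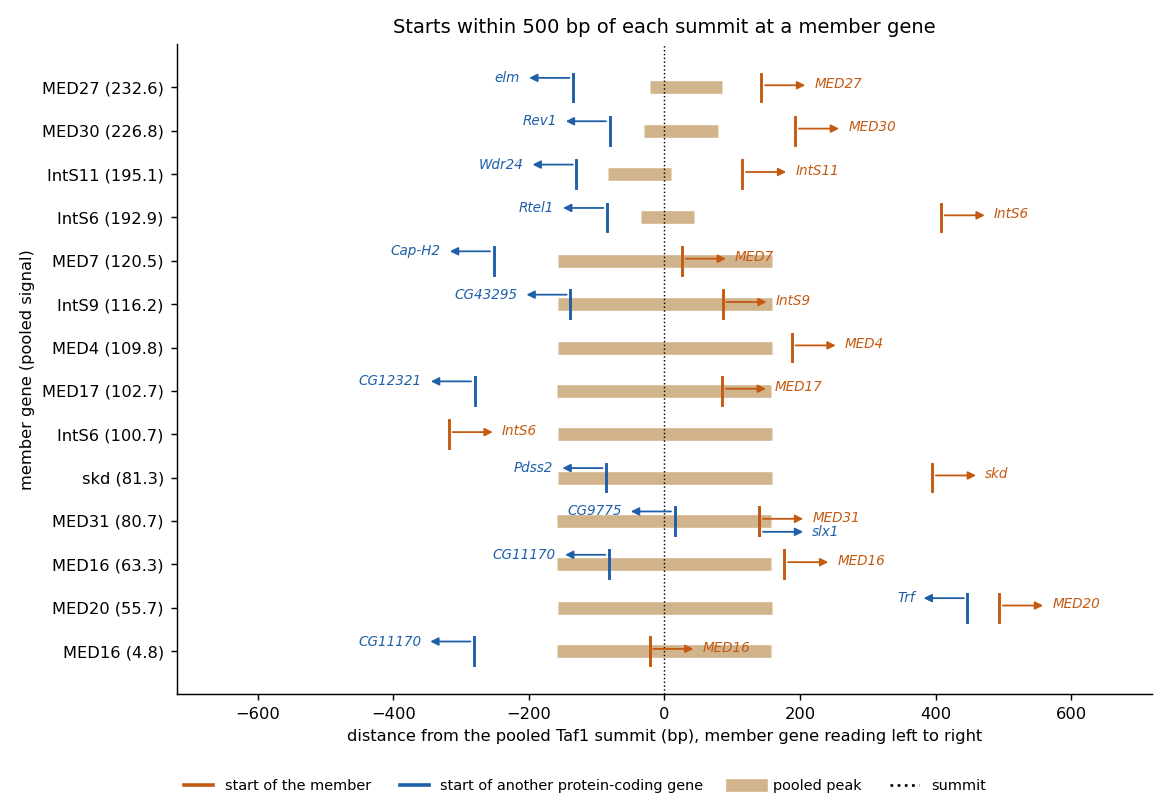
Positions of annotated starts around each of the 14 pooled Taf1 summits at members, in bp from the summit (dotted line), with every member drawn reading left to right and rows ordered by pooled signal. Orange ticks with arrows are starts of members, blue ones starts of other protein-coding genes, and tan bars are the peaks, and 12 of the 14 rows carry a neighbour's start as well as the member's.

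Taking the strongest summit of each occupied member, all 12 lay upstream of the start, at a median of -160 bp, against a median of -135.5 bp and 87.6% upstream for the 1850 occupied genes. Of the 12 members, 11 had a summit shared head-to-head, against 56.9% of occupied genes. A summit between paired head-to-head starts is upstream of both by position alone, so the share upstream is not independent of the sharing. The median pooled signal of the members was 113.0 (range 55.7 to 232.6), against 99.3 for all occupied genes, whose strongest reached 1304. MED27, MED30, IntS11 and IntS6 ranked 261, 272, 361 and 370 of the 2658 peaks, and the other members ranked from 839 to 2403. Given to the nearest start only, 7 members held a summit: IntS11, IntS6, IntS9, MED16, MED17, MED4 and MED7 (58.3% of 12, against 73% of all occupied genes). For MED16 this rested on the weak summit alone, and for IntS6 on its weaker, intronic summit. At the stronger IntS6 summit the Rtel1 start was nearer. The IntS11 start was 115 bp from its pooled summit and the Wdr24 start 130 bp. In the thresholded list of either replicate alone, IntS11 did not have the nearest start. At MED27, MED30, MED20, MED31 and skd the neighbour's start was nearer in the pooled list, although in replicate 1 alone MED27 had the nearest start.

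The replicates differed in how many members they held. Replicate 1's thresholded list had 7 members (17.5%, against 7.23% of protein-coding genes) and that of replicate 2 had 10 (25%, against 10.6%). For Mediator these were 4 and 7 of 29, and for Integrator 3 of 11 in each. All 7 members of replicate 1, namely IntS11, IntS6, IntS9, MED17, MED27, MED30 and MED7, were also in replicate 2, against 5.99% of protein-coding genes in both. The conservative pooled list held 11 members, all but MED20 (27.5%, against 11.4%). At the strongest peak of each occupied member the ranked-list signal was higher in replicate 2 at 10 and higher in replicate 1 at 2, MED30 and MED16. The median log2 ratio of replicate 2 to replicate 1 was 0.55 (SD 0.51), with the largest ratio, 1.20, at MED4 and the lowest, -0.32, at MED16. Over the 1312 promoter peaks with a match in both ranked lists the signal was higher in replicate 2 at 824 and in replicate 1 at 488, with a median of 0.18 (SD 0.65).

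The ranked lists held weaker summits at further members. The counts that follow include the occupied members, all of which had a ranked-list summit in both replicates. A summit within 500 bp of a start was present at 29 of 40 members in replicate 1 (72.5%, against 49.7% of protein-coding genes) and at 25 in replicate 2 (62.5%, against 64.2%). In the ranked lists of both replicates there were 22 (55%, against 37.1%), and in the pooled ranked list 27 (67.5%, against 56.6%). The count for both replicates needs a summit within 500 bp in each list, not the same summit. In replicate 2 the share of members was thus no higher than that of all genes. In at least 1 ranked list there were 32 members (80%, against 76.7%), including all 11 Integrator genes.

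Of the unoccupied members, IntS4 had the highest pooled ranked-list signal. The lists were thresholded on IDR, the reproducibility of a peak's rank, and keep some peaks of low signal, so signal does not measure distance from the threshold. Its pooled ranked-list signal was 51.6, ranking 3193 of 60203, with 32.3 in replicate 1 and 22.9 in replicate 2 and a summit 82 to 89 bp upstream of its start in each list. MED20, the weakest occupied member, had 55.7 and ranked 2803 in the same list. MED19, counted here with the head genes, had 46.5 in the pooled ranked list, and 30.6 and 15.7 in the replicates. Its summit in the pooled ranked list lay 122 bp past its start. MED23, a tail subunit, had 42.9, and 27.0 and 17.8 in the replicates. IntS8, which contacts PP2A, had 42.8 in the pooled ranked list and 26.1 in replicate 1, and no summit in replicate 2. These weak summits fell short of the authors' threshold and are given as values only.

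The rest had lower pooled signals or none, although some replicate 2 values, such as that of MED6, were above those of IntS4, MED19 and MED23. MED14, the central scaffold of Mediator, had 17.8 and 15.5 in replicates 1 and 2, MED6 had 19.6 and 23.2, MED8 had 17.5 and 20.2, and MED25 had 18.8 and 12.3. IntS12, a PHD finger subunit, had 23.9 and 17.2. IntS10 had 15.7 and 21.5, and IntS14 had 12.4 and 13.5. A summit in replicate 1 alone was found at MED1 (25.5), a subunit that binds nuclear receptors, Cdk8 (22.7), IntS3 (21.6), MED11 (12.6), MED26 (12.4) and MED21 (12.1). A summit in replicate 2 alone was found at IntS2 (21.8), kto (15.5) and IntS1 (11.2). The lowest signal kept in the ranked lists was 11.3 in replicate 1 and 2.00 in replicate 2. Several of the replicate 1 values thus stood just above the floor of that list.

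For 8 Mediator genes neither ranked replicate list had a summit within 500 bp: CycC, MED9, MED10, MED15, MED18, MED22, MED24 and MED28. Of these, MED10 (17.3) and CycC (4.9) had one in the pooled ranked list. No unoccupied member had a pooled thresholded summit between 500 and 1000 bp from a start. The nearest was 2653 bp away, at MED6, so the split into 12 occupied and 28 unoccupied members was the same with either distance. The farthest was MED21, 2236924 bp from any thresholded summit, followed by IntS3 at 752227 bp.

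**Figure D3:**
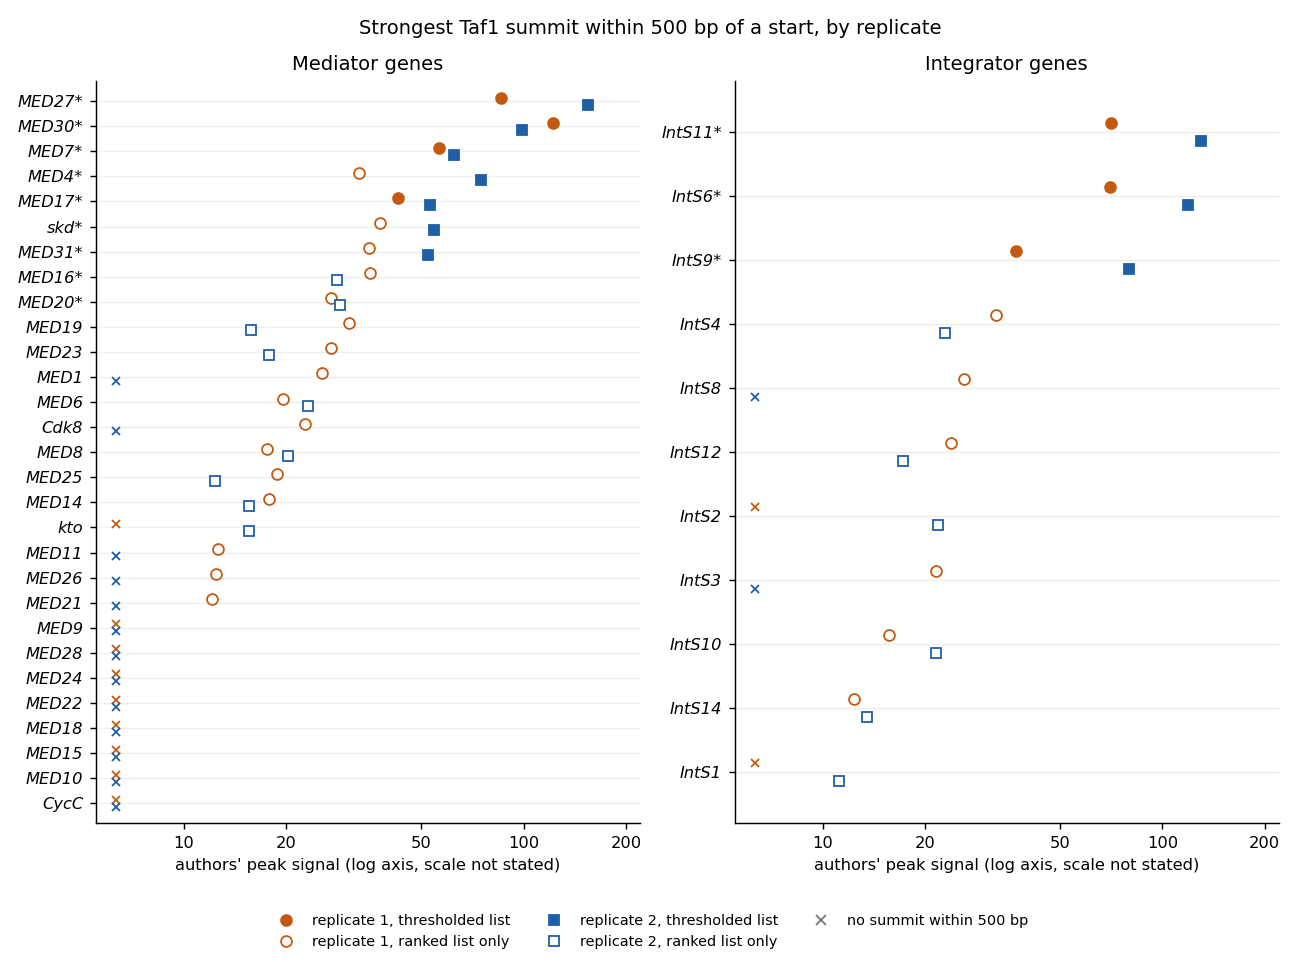
The authors' peak signal (log axis) of the strongest summit within 500 bp of a start for each of the 29 Mediator (left) and 11 Integrator genes (right), in replicate 1 (orange circles) and replicate 2 (blue squares). Filled symbols were in that replicate's thresholded list, open ones in its ranked list only, crosses mark no summit and an asterisk marks the 12 genes occupied in the pooled list; MED27, MED30, IntS11 and IntS6 have the 4 highest values in both replicates.

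Counted by module, 3 of 9 head genes, 3 of 8 middle genes, 2 of 8 tail genes and 1 of 4 kinase genes of Mediator were occupied. MED19 was counted with the head here. For Integrator the counts were 2 of 3 cleavage genes, 1 of 2 phosphatase-module genes and 0 of the other 6. With so few genes in a module these counts do not separate one module from another. Outside the naming rule, 3 genes that encode further Integrator subunits under older names were examined after these values were seen. defl, which encodes the homologue of subunit 7, had a summit 146 bp upstream that it shares with nbs, with a pooled signal of 86.5 and 47.3 and 43.2 in the replicates. The omd gene (subunit 5) had a summit in the ranked list of replicate 1 only, and asun (subunit 13) had none in either ranked replicate list.

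Genes of the machinery that works with these complexes were then listed: the PP2A core, the pausing factors NELF and DSIF, P-TEFb and the super elongation complex, the TFIIH kinase, RNA polymerase II, 3′ end processing factors and SNAPc, which drives snRNA genes. Of the 44 annotated genes of these lists 12 were occupied, where 13.2% of all protein-coding genes were. A summit of their own was present at 1 of those 12, against 41.1% of all occupied genes. mts, the catalytic subunit of the PP2A that Integrator carries, had a pooled signal of 82.4, 387 bp upstream and shared with Rack1. Nelf-E had 139.3 at a summit shared with RpL14, and TH1, which encodes the NELF-D subunit, had 108.1 at one shared with mei-41. Larp7, a partner of the 7SK RNA, had 68.9 at a summit shared with mxc, and Pbp95, the largest SNAPc subunit, had 83.4. Of the 3′ end factors, CstF64 had 95.9, Clp 65.8 and Cpsf100 53.4. Of the 12 RNA polymerase II genes 4 were occupied, too few to set against the share of all genes. Polr2B (201.5, the highest in these lists), Polr2H (155.6) and Polr2J (137.0) had summits shared with 140up, CG11247 and CG15141. The Polr2F summit (98.5), 7 bp past its start, was the only one in these lists that was not shared. None of the TFIIH kinase genes Cdk7, CycH and Mat1 was occupied.

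Letters of known core promoter motifs were searched on both strands in the 300 bp around each summit. The most frequent at the members was Ohler motif 7, a motif of housekeeping promoters, found at 8 of the 14 member peaks (57.1%), against 15.8% of all 1405 promoter peaks. These were the peaks of MED27, MED7, IntS9, MED17, skd, MED31, MED20 and the weak one of MED16. The centre of the match lay between 11 bp (MED20) and 125 bp (MED31) from the summit. In the promoter windows, from 250 bp before to 50 bp after the most upstream start of each gene, it was found at 6 of 12 occupied members (50%) and 5 of 28 unoccupied ones (17.9%), against 17% of all occupied genes and 9.28% of all protein-coding genes. The occupied members skd and MED20 had a match near the summit but none in their own promoter window. At MED16 and MED31 the match began 20 and 21 bp upstream of the start. At MED17 and MED7 it began 3 bp upstream and ran across the start. MED27 had a match that began 4 bp upstream and also ran across the start. Its other match, the one in capitals, began 32 bp upstream. In the printed stretch of IntS9 the match began 193 bp upstream of IntS9, nearer to the CG43295 start.

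The DNA replication-related element or DRE (TATCGATA, its own reverse complement) was found at 2 of 14 member peaks (14.3%), against 10.6% of promoter peaks. These were the peak of MED17 and the stronger peak of IntS6. In the promoter windows 8 of 40 members held it (20%), against 9.36% of all genes. Of these, MED17 and MED7 were occupied, and IntS8, MED18, MED25, MED28, MED8 and MED9 were not. The DRE began 27 bp upstream of MED17 and 189 bp upstream of MED7, as the capitals in their sequences show. The MED7 match lay outside the window around the summit. Ohler motif 1 was found in the promoter windows of 8 of 40 members (20%), against 4.49% of all genes, at MED20 among the occupied members and at IntS1, MED11, MED15, MED19, MED22, MED23 and MED24 among the unoccupied ones. It was at none of the 14 member peaks, against 4.06% of promoter peaks.

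The other motifs fell on either side of their share at all promoter peaks. The letters TATAAA of the TATA box were at 5 of 14 member peaks (35.7%), against 47.5% of promoter peaks, with no requirement on position. In the promoter windows the direction was the other way, with 55% of members against 45.8% of all genes, and 50% of occupied members against 46.2% of occupied genes. The E-box (CAGCTG) was at 1 of 14, the MED30 peak (7.14%), against 19.6%. In the promoter windows it was at 20% of members, against 17.6% of all genes, but at 8.33% of occupied members, against 24.1% of occupied genes. The initiator letters TCAGT were at 42.9%, against 44.3%, but in the promoter windows they were at 2 of 12 occupied members (16.7%), against 45.1% of occupied genes. The GAGA letters GAGAG were at 14.3% of member peaks, against 34.9%. Ohler motif 6 was at 1 of 14, the MED27 peak (7.14%), against 2.06%. GC content in the summit windows had a median of 35.8% (range 29.0 to 54.3%), against 36.7% at all promoter peaks. With 14 peaks, and with the windows of the MED16 summits overlapping, a single peak moves a share by several percentage points. The matches are letters in a window and do not show binding of any factor.

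**Figure D4:**
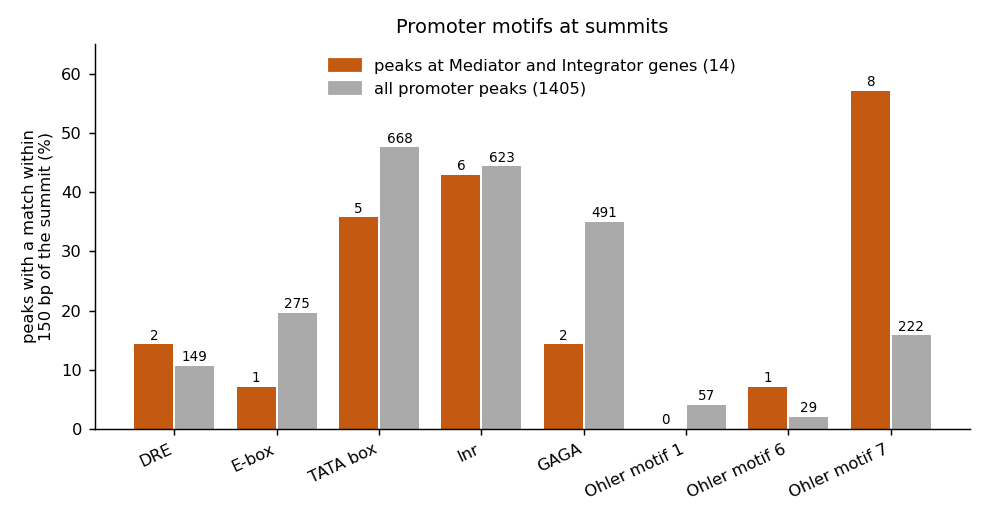
Share of peaks with a motif match within 150 bp of the summit, in percent, for the 14 peaks at Mediator and Integrator genes (orange) and all 1405 promoter peaks (grey), with counts above the bars. Ohler motif 7 is at 57.1% of member peaks, against 15.8% of promoter peaks.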

How the data were processed

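The data were peak lists of Taf1-eGFP ChIP-seq from whole embryos, 1 group with 2 biological replicates. The genome build was dm6, per the labels, which name neither an aligner nor a peak caller. Peaks were called against a control, per the deposited file lists. The authors deposited 8 peak lists: a thresholded and a longer ranked list per replicate, and for the pooled reads a conservative list, a larger list and 2 ranked lists, per the deposited file lists. Each peak carries a signal value from the authors, on an unstated scale. It was used to describe and rank peaks within a list and to set the replicates side by side. The deposited IDR score and the deposited −log10 of the global IDR were read but not used in a result. In the pooled ranked lists, 4 columns with values of single samples carry no sample name and were left out.

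Peaks on arms were kept. Starts came from Ensembl release 115, and sequence from the RefSeq release 6 assembly. All 40 members had identical coordinates in both annotations, and no pooled peak ended past its arm. The summit was the peak start plus the summit offset. A replicate's signal at a pooled peak was that of the strongest ranked-list peak overlapping it by at least 1 bp. Shares have exact Clopper-Pearson 95% intervals. Genes are not replicates and neighbours share summits, and no test was run. The occupancy rules were tested on simulated starts and peaks. Motif shares were set beside all windows of the same length. All occupied members were named, all others were accounted for, and of the partner lists the occupied genes were named. The members and lists were chosen with earlier results of these data known. Alternatives were windows of 250 and 1000 bp, the conservative list, leaving out a replicate, peak overlap with the start, the nearest start only, and shorter lists. Scripts ran in Python 3.11.15, tables were handled in pandas 2.3.3 and numpy 2.4.6, intervals came from scipy 1.17.1, and figures were drawn in matplotlib 3.10.9. No read totals were used, so depth per sample is unknown.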

Additional observations from a re-analysis of the deposited data

How the results depend on the processing

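The 9 occupied Mediator genes numbered 7 to 9 with windows of 250 and 1000 bp, in the conservative list and in the replicate 2 list shortened to the length of the replicate 1 list. They numbered 4 when a peak had to overlap the start and 4 when each summit went to its nearest protein-coding start. With 1 replicate left out the count was 4 (replicate 1 alone) or 7 (replicate 2 alone). The 3 occupied Integrator genes were 3 in each replicate alone and 1 with peak overlap of the start. The share of all genes moved with these settings too. Over the 40 members it was 22.5% within 250 bp, against 10.7% of protein-coding genes, and 30% within 1000 bp, against 15.4%. With peak overlap it was 12.5%, against 6.79%, and in the shortened replicate 2 list 25%, against 7.39%. Given to the nearest start, 58.3% of the occupied members kept a summit, against 73% of all occupied genes. Members with a summit of their own numbered 2, 1 to 2 with a replicate left out, 4 of 9 with a 250 bp window, where fewer starts fall in the window, and 3 of 5 with peak overlap. Members nearest to a summit numbered 7, 5 with either replicate left out and 4 with peak overlap. The median summit position was -160 bp, -102 bp in replicate 1 alone and -151 bp in replicate 2 alone. Of members with a ranked-list summit in both replicates (22), 13 were left with the strongest 10000 peaks of each list (32.5%, against 16.6% of protein-coding genes). The lists give no read counts, so how depth limits the weak peaks cannot be said. No paired analysis was possible because there was 1 group.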
